A study of Mus with 6 samples.

Results

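The genes of monoamine synthesis and transport were followed here as a set of 10 rows of the deposited table of 18887 genes: Tph2, Th, Ddc, Dbh, Slc6a2, Slc6a3, Slc6a4, Slc18a2, Fev and Maob. Rows were taken by gene symbol, and all 10 symbols had a row. The set was chosen by name, with the normalized counts of these same 6 libraries already known from earlier results, so the differences of these 10 genes between the groups are given as descriptions, and no test of them is used as support. The samples were RiboTag immunoprecipitates of mouse whole brain, in which a tagged ribosomal protein is used to pull down the ribosomes of chosen cells with their mRNA. The 2 control libraries carry the genotype Ctr and the 4 libraries titled IRKO carry the genotype KO (insulin receptor knockout, by the series title). Microglia are the labelled cell type of both groups. No source used here gives the strain, the age, the promoter that drives the tagged protein or the deletion, or whether each library came from its own animal.

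Monoamines are made by small groups of neurons in the brainstem, midbrain, hypothalamus and olfactory bulb. Serotonin is made from tryptophan by tryptophan hydroxylase and then aromatic amino acid decarboxylase, while tyrosine hydroxylase begins the path to dopamine and, through dopamine beta-hydroxylase, to noradrenaline. The vesicular transporter loads all of these amines into vesicles, each plasma membrane transporter takes its own amine back up, and monoamine oxidases break them down. Most of these genes are therefore markers of rare neurons, whereas Maob is strongly expressed in astrocytes.

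Each library held 13858978 to 19010680 reads. Insr, the targeted gene, had a normalized count of 565 and 532 in the 2 controls against 357, 366, 290 and 340 in IRKO, a log2 difference of −0.70 ± 0.135 (SE, limma adjusted p = 0.00211). Markers of homeostatic microglia were present in all 6 libraries and were higher in IRKO, with 16 of 16 passing limma's test and a summed normalized count of 56091 to 69281 in the controls against 151693 to 211318 in IRKO. Libraries of the same group differed in the summed levels of genes that mark brain regions. Summed olfactory bulb genes stood at 156 in control replicate 1 and 1305 in replicate 2, and at 786, 749, 182 and 1241 in IRKO replicates 1 to 4. Summed midbrain and hindbrain genes stood at 8.998 and 9.68 in the controls and at 14.9, 13.8, 86.5 and 25.3 in IRKO. Although the tissue label is whole brain, the cerebellar genes Gabra6 and Pcp2, which mark granule and Purkinje cells, did not exceed 2.91 and 3.87 in any library. The whole list of 8 cerebellum genes summed to 730 to 1139, and of the 4 that were tested 3 were higher and 1 lower in IRKO.

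Of the 10 genes, 6 passed the filter of a normalized count of at least 10 in at least 2 libraries. Since the choice used this contrast, the number of them past a threshold is no test of the set and is given only beside the share of all genes. In the fit across all genes 2 of the 6, Tph2 and Maob, had a limma adjusted p under 0.05, beside 55.6% of all genes tested and 29.0% in the lower direction. The same 2 passed with edgeR on the recovered reads, beside 54.9% of all genes in either direction, 26.1% higher and 28.8% lower. DESeq2 on these reads passed Slc18a2 as well, beside 7993 of all 14698 genes tested. So did edgeR without IRKO replicate 1, beside 7705. Nothing is read from these counts. The control and IRKO values did not overlap for Tph2, Slc18a2 and Maob, against 67.6% of all genes tested. Dbh, Slc6a2, Slc6a4 and Fev did not pass the filter, and Fev had 2 reads in all 93017914. Normalized counts are not divided by gene length, so levels are compared between libraries and not between genes.

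**Figure D1:**
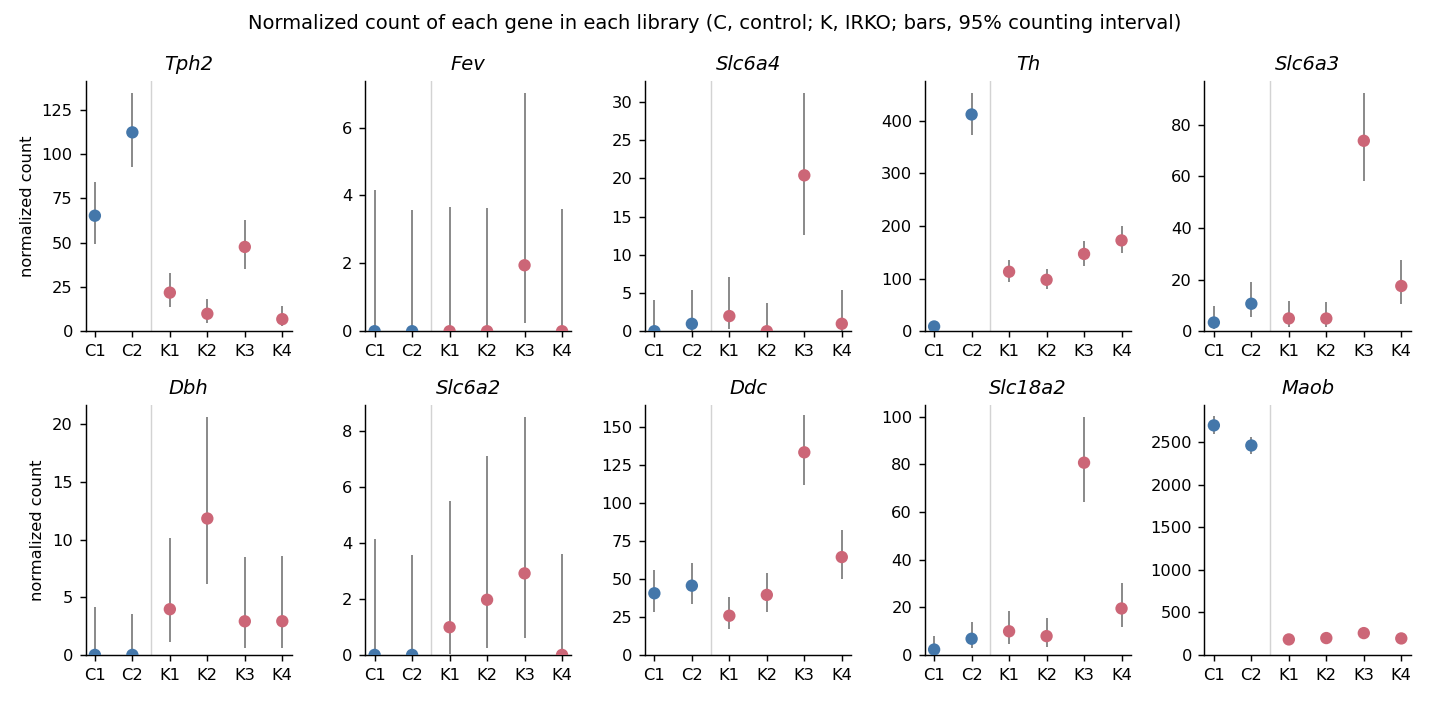
Normalized count (y axis, linear, from 0) of each of the 10 genes in the 2 control (C) and 4 IRKO (K) libraries; points are single libraries and bars are exact 95% Poisson intervals, which cover counting error only. Tph2 and Maob are higher in both controls, Th is spread from 8.998 to 411 within the controls, and Slc6a3, Slc6a4, Ddc and Slc18a2 peak in IRKO replicate 3.

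Tph2, which encodes the neuronal tryptophan hydroxylase that limits serotonin synthesis, lies on chromosome 10 from 115078641 to 115185022 (GRCm38.p6). Its normalized count was 65.2 and 112 in the controls and 21.8, 9.86, 47.6 and 6.82 in IRKO replicates 1 to 4. Both controls lay above every IRKO library, but IRKO replicate 3 came nearest to them, at 3.71 times the mean of the other 3 IRKO libraries (95% counting interval 2.40 to 5.82). The group means were 88.8 ± 33.3 (SD, n = 2) and 21.5 ± 18.6 (SD, n = 4), and the fitted log2 difference was −2.31 ± 0.661 (SE). Leaving out IRKO replicate 3 gave −2.80. Leaving out control replicate 2 gave −1.92. In bulk precipitates fewer cells of a type and less RNA per cell cannot be told apart.

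Fev and Slc6a4, which serotonin neurons express along with Tph2, had at most 1 read in either control. Fev, the transcription factor Pet-1 that serotonin neurons need for their identity (chromosome 1 from 74881501 to 74885473), had 0 reads in both controls and in IRKO replicates 1, 2 and 4, and 2 reads in IRKO replicate 3. Slc6a4, the serotonin transporter (chromosome 11 from 76998597 to 77032343), had 0 and 1 reads in the controls, where Tph2 had 58 and 116. In IRKO replicates 1 to 4 Slc6a4 had 2, 0, 21 and 1 reads, against 22, 10, 49 and 7 for Tph2. The library with the most Slc6a4 was thus the IRKO library with the most Tph2, whereas the controls held more Tph2 and almost no Slc6a4. Over the groups the ratio of Slc6a4, IRKO over control, was 11.3 with a 95% counting interval of 1.84 to 465, and it was 1.89 without IRKO replicate 3. Lmx1b, another transcription factor of serotonin neurons, did not pass the filter and stood at 6.75 and 1.94 in the controls and 2.96 to 12.6 in IRKO.

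The direction of Tph2 depended on the genes it was set against, being higher in the controls relative to pan-neuronal genes and higher on average in IRKO relative to astrocyte genes. Pan-neuronal genes, a list of 15 genes such as Rbfox3 and Snap25, summed to 42118 and 52505 in the controls and 72498 to 96324 in IRKO, with 13 of 15 higher in IRKO by limma. Per 1000 of that sum Tph2 stood at 1.55 and 2.14 in the controls and at 0.245, 0.104, 0.494 and 0.0940 in IRKO. Per 1000 of the summed astrocyte genes, which were themselves lower in IRKO, Tph2 stood at 0.121 and 0.263 in the controls and 0.956, 0.381, 1.57 and 0.260 in IRKO, and the groups overlapped. The 3 genes whose profile over the 6 libraries lay nearest to that of Tph2 were Kcnk7, a potassium channel subunit, Ccnb1, a mitotic cyclin, and Dnali1, an axonemal dynein chain. Their root mean square differences from Tph2 were 0.46, 0.47 and 0.50 on the mean-centred log2 scale. Dnali1, for one, stood at 56.2 and 51.3 in the controls and 7.92, 8.87, 23.3 and 5.84 in IRKO. Ependymal cells carry motile cilia, and summed choroid plexus and ependyma genes stood at 4987 and 69337 in the controls and 1044 to 12518 in IRKO, with 5 of 8 lower and none higher. Their part in the level of Tph2 was not tested.

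Th, tyrosine hydroxylase, the first enzyme of dopamine and noradrenaline synthesis, lies on chromosome 7 from 142892779 to 142899995. It stood at a normalized count of 8.998 in control replicate 1 and 411 in control replicate 2. In IRKO replicates 1 to 4 it stood at 113, 97.6, 147 and 172, so every IRKO value fell between the controls. Control replicate 2 exceeded replicate 1 by 45.7 times (95% counting interval 23.0 to 107), and only 9 of 14698 tested genes, Th included, showed a log2 difference at least as large in that direction. The comparison between groups consequently has no stable direction. The group means were 210 ± 285 (SD, n = 2) and 132 ± 33.6 (SD, n = 4), while the fitted log2 difference was 1.02 ± 1.11 (SE), of the opposite sign to the ratio of the means. Dropping control replicate 1 gave −1.66, and dropping control replicate 2 gave 3.70. With all 6 libraries edgeR gave −0.66.

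The genes nearest to Th were markers of the olfactory bulb, whose periglomerular neurons make dopamine. Scgn (secretagogin, a calcium-binding protein) lay at a root mean square difference of 0.63 and Cdhr1 (a photoreceptor and mitral cell cadherin) at 0.72, both members of the 7-gene olfactory bulb list, followed by Lgr5, a receptor of the Wnt pathway, at 0.82. Scgn stood at 1.12 and 99.7 in the controls and 18.8, 20.7, 10.7 and 54.5 in IRKO. All 7 listed bulb genes were higher in control replicate 2 than in replicate 1, as Doc2g, at 574 and 46.1, and Eomes, at 76.5 and 23.6. None of the 7 differed between the groups by limma. Per 1000 of the summed bulb genes Th still varied, at 57.6 and 315 in the controls and 144, 130, 807 and 139 in IRKO. IRKO replicate 3, at 807, held 182 of summed bulb counts beside 147 of Th.

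Slc6a3, the dopamine transporter, is on chromosome 13 from 73536128 to 73578672 and marks dopamine neurons of the midbrain. It stood at 3.37 and 10.7 in the controls and 4.95, 4.93, 73.8 and 17.5 in IRKO. IRKO replicate 3 was 8.08 times the mean of the other 3 IRKO libraries (95% counting interval 5.15 to 12.9). The groups overlapped, and IRKO replicates 1 and 2 lay between the controls. The fitted log2 difference of 1.06 ± 0.997 (SE) fell to 0.28 without IRKO replicate 3. Th and Slc6a3 peaked in different libraries: Th was highest in control replicate 2, where Slc6a3 stood at 10.7. Both were nevertheless higher in control replicate 2 than in replicate 1, and higher in IRKO replicates 3 and 4 than in 1 and 2.

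Slc18a2, the vesicular monoamine transporter VMAT2, is on chromosome 19 from 59260878 to 59296012 and serves all monoamine neurons. It stood at 2.25 and 6.78 in the controls and 9.91, 7.89, 80.6 and 19.5 in IRKO. Every IRKO library lay above both controls, although IRKO replicate 2 exceeded control replicate 2 by only 1 read, 8 against 7. The fitted log2 difference was 2.00 ± 0.858 (SE) and was 1.32 without IRKO replicate 3. The pooled ratio of IRKO over control was 6.33 (95% counting interval 3.23 to 14.2) and 2.66 without IRKO replicate 3. Slc18a2 and Slc6a3 were each among the nearest profiles of the other, at a root mean square difference of 0.51. The other near profiles were Scara5, a scavenger receptor, and Lct, lactase, for Slc18a2 (0.50 and 0.53), and Slitrk6, a neuronal membrane protein, for Slc6a3 (0.59).

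Ddc, the decarboxylase that completes both serotonin and dopamine, is on chromosome 11 from 11814101 to 11898144. It stood at 40.5 and 45.5 in the controls and 25.8, 39.4, 133 and 64.3 in IRKO. The controls agreed within counting error, with a ratio of 1.12 (95% counting interval 0.713 to 1.79), and lay inside the IRKO range. The fitted log2 difference was 0.34 ± 0.541 (SE), turned to −0.09 without IRKO replicate 3, and was −1.25 after scaling to homeostatic microglia genes. Its nearest profiles were Dlk1, a membrane protein found in dopamine and hypothalamic neurons, Sgk2, a kinase, and Tcf7l2, a transcription factor of thalamic neurons, at 0.19, 0.23 and 0.26. Dlk1 stood at 118 and 95.9 in the controls and 62.4, 87.7, 248 and 138 in IRKO. Liver also expresses Ddc, and summed liver genes stood at 4261 and 77852 in the controls, where Ddc stood at 40.5 and 45.5. The liver list shares Ttr with the choroid plexus and ependyma list, whose sums were 4987 and 69337 in the same libraries. The liver sum is therefore no specific measure of liver RNA. The part of liver RNA in the level of Ddc was not tested.

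Slc6a3, Slc18a2, Slc6a4 and Ddc thus had their highest value in the same library, IRKO replicate 3, along with other transcripts of the midbrain and hindbrain. Of the 13 genes on that list 11 were highest in IRKO replicate 3, and none of the 13 passed the filter. Hoxa3, Hoxa5, Hoxb8 and Pax8 had reads in IRKO replicate 3 alone. En1, a factor that dopamine neurons depend on, stood at 30.1 there and at 0 to 6.82 in the other 5 libraries, and Gata3, of serotonin neurons, at 43.7 and at 1.12 to 27.3. These 2 come from a list of 17 transcription factors of monoamine neurons, of which only 8 were highest in IRKO replicate 3. Ret, the receptor for a growth factor of dopamine neurons and a near profile of Slc6a3 (0.62), stood at 85.5 there and at 8.998 to 55.5 in the others. The genes named in this paragraph other than the 4 transporter and enzyme genes and Ret were chosen after their values were seen. The part of the region content in the levels of these genes was not tested.

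**Figure D2:**
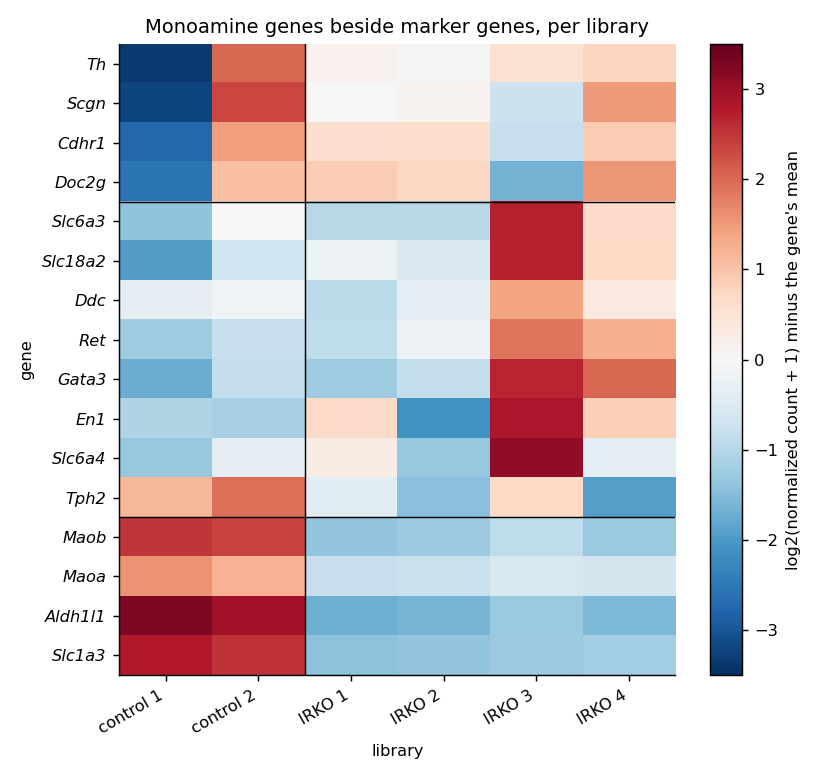
Colour shows log2(normalized count + 1) of each gene (rows) in each library (columns) minus the gene's mean over the 6 libraries, with lines between blocks of genes and between the groups. Th, Scgn, Cdhr1 and Doc2g are low in control replicate 1, the middle block from Slc6a3 to Slc6a4 is high in IRKO replicate 3, and Maob and Maoa are high in both controls beside the astrocyte genes Aldh1l1 and Slc1a3; Gata3 and En1 were chosen after their values were seen.

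Blood and mast cells also carry the serotonin and vesicular transporters. Of 10 platelet and megakaryocyte genes 5 were tested, of which 1 was higher and 1 lower in IRKO, and the sum ranged from 1170 to 1395 in the controls and from 912 to 1217 in IRKO. The platelet chemokines Pf4 and Ppbp did not exceed 22.5 and 5.81. IRKO replicate 3, the library with most Slc6a4 and Slc18a2, had a platelet sum of 1125, inside the range of the other IRKO libraries. Among mast cell genes Cpa3 did not exceed 0.991, Ms4a2 was at 0 in all 6 libraries, and the sum, 340 to 402 in the controls and 320 to 348 in IRKO, was carried mostly by Kit and Hdc. In that list 1 of the 2 tested genes was higher and 1 lower. The lower one was Hdc, with a log2 difference of −3.80, so it carried little of the sum in IRKO. The similar sums of the groups thus hide opposite changes. Red blood cell genes differed widely, with all 6 tested genes lower in IRKO by limma. Their summed normalized count was 75535 for control replicate 1 and 161690 for control replicate 2. For IRKO replicates 1 to 4 it was 2140, 921, 488 and 244. The near-equal platelet sums therefore do not show that blood content was alike between the groups. The part of blood and mast cells in the levels of these transporters was not tested.

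Dbh, dopamine beta-hydroxylase, which turns dopamine into noradrenaline, is on chromosome 2 from 27165507 to 27183204. It had 0 reads in both controls and 4, 12, 3 and 3 reads in IRKO replicates 1 to 4, or normalized counts of 3.96, 11.8, 2.91 and 2.92. Each IRKO library held more than both controls. Against a floor of 3 reads over the control group, which is a normalized count of 1.56, the pooled Dbh level in IRKO was 3.45-fold higher. This ratio takes the 22 IRKO reads as they stand. It leaves out their counting error and the spread between libraries, so it is not a lower limit. The ratio was 1.86 when control replicate 1 was dropped, 1.60 for control replicate 2 and 2.09 for IRKO replicate 2. Slc6a2, the noradrenaline transporter (chromosome 8 from 92960470 to 93001667), had 0 reads in both controls and 1, 2, 3 and 0 in IRKO, too few for a fold. Phox2a, a transcription factor of noradrenaline neurons, was at 0 in every library except for 0.974 in IRKO replicate 4. The library with most Dbh, IRKO replicate 2, was not the library with most dopamine or serotonin transporter.

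Maob, monoamine oxidase B, an enzyme of the outer mitochondrial membrane that breaks down dopamine and trace amines, is on chromosome X from 16709281 to 16817366. It stood at 2699 and 2463 in the controls and 182, 198, 256 and 194 in IRKO. Its libraries were close within each group and far apart between groups, with means of 2581 ± 167 (SD, n = 2) and 208 ± 33.2 (SD, n = 4), which is 12.4-fold lower in IRKO. The fitted log2 difference was −3.64 ± 0.155 (SE) and lay between −3.75 and −3.57 with any single library left out. Control replicate 2 stood at 0.912 times replicate 1 (95% counting interval 0.863 to 0.965).

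Astrocyte genes fell over the same libraries. All 12 listed, such as Aldh1l1 and Slc1a3, were lower in IRKO by limma, and their sum was 541388 and 427826 in the controls and 22803 to 30300 in IRKO, an 18.4-fold difference of means. Per 1000 of this sum Maob stood at 4.99 and 5.76 in the controls and at 7.99, 7.66, 8.46 and 7.40 in IRKO. On that scale every IRKO library lay above both controls, whereas per 1000 of the pan-neuronal sum Maob stood at 64.1 and 46.9 in the controls and 2.05 to 2.67 in IRKO. The profiles nearest to Maob were Abhd3, a lipase, Ddah1, which clears a methylated arginine, and Cxcl14, a chemokine, at root mean square differences of 0.05, 0.06 and 0.06. Ddah1 stood at 8511 and 7934 in the controls and 544, 645, 862 and 648 in IRKO.

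The spread within groups separated the 6 tested genes. Among all genes tested, the difference between control replicates 2 and 1 lay between −0.71 and 0.71 (log2) from the 5th to the 95th percentile. Th exceeded this range at 5.37, Slc6a3 at 1.41, Slc18a2 at 1.26 and Tph2 at 0.77, though Slc6a3 and Slc18a2 rest on 2 to 11 control reads. Between IRKO replicate 3 and the mean of the other 3 IRKO libraries, the same range was −0.52 to 0.68. Slc6a3 stood at 3.11, Slc18a2 at 2.70, Tph2 at 1.96 and Ddc at 1.70, and 9 of 14698 genes, Slc6a3 included, were at least as high as Slc6a3. Maob was inside both ranges, and Th inside the second, at 0.24.

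**Figure D3:**
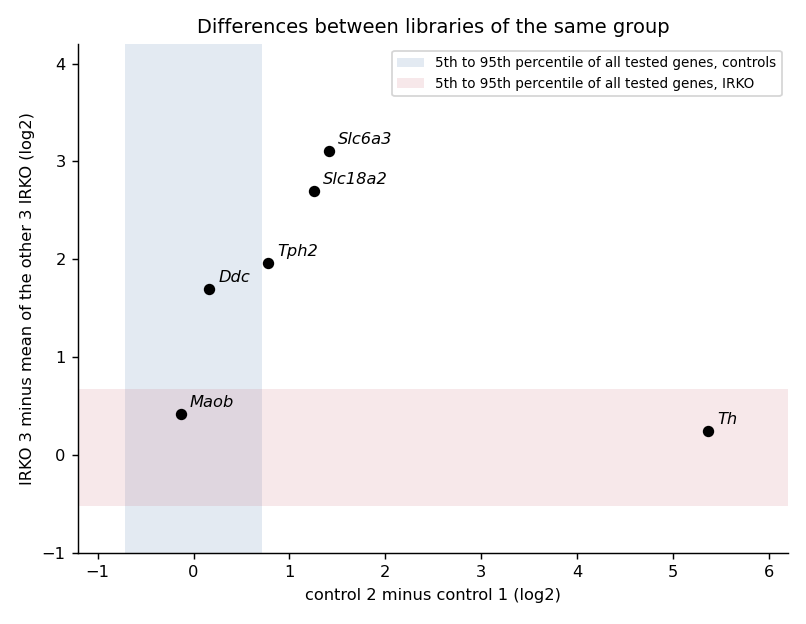
Each point is one of the 6 tested genes, with control replicate 2 minus replicate 1 on the x axis and IRKO replicate 3 minus the mean of the other 3 IRKO libraries on the y axis, both as differences of log2(normalized count + 1). Shaded bands span the 5th to 95th percentile of all 14698 tested genes; Maob lies inside both bands, Th at 5.37 lies far outside the control band, and Slc6a3, Slc18a2, Tph2 and Ddc lie above the IRKO band.

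Other genes of the monoamine pathways, 82 genes in 9 lists, are not members of the set and were tested with limma over all genes. These lists too were drawn up with earlier results of these libraries known, so their calls are no independent support. Of the 57 that passed the filter 21 were higher and 15 lower in IRKO, which is beside 26.6% higher and 29.0% lower among all genes tested, and their median log2 difference was 0.37 against 0.02 for all genes. Without control replicate 1 only 11 were higher. The counts also depend on the scaling, with 1 higher and 37 lower when libraries were scaled to the homeostatic microglia genes and 3 higher and 25 lower when scaled to the pan-neuronal genes, where the medians of all genes were −1.59 and −0.81.

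Among enzymes of breakdown and conjugation 2 of 7 tested genes fell and none rose, a share near the 29.0% of all genes that were lower, with a list median of −0.25. Maoa, the sister oxidase that prefers serotonin and noradrenaline, fell from 1137 ± 188 (SD, n = 2) to 265 ± 21.6 (SD, n = 4), a log2 difference of −2.09 ± 0.142 (limma adjusted p = 4.05e-06). Aldh2, the mitochondrial dehydrogenase that oxidizes the aldehydes left by the oxidases, fell by 2.89 ± 0.190 on the log2 scale (limma adjusted p = 3.31e-06).

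Of 8 genes for tetrahydrobiopterin, the cofactor of both hydroxylases, 4 fell and 1 rose as deposited, with a list median of −0.66. Among all genes tested 29.0% were lower and 26.6% higher. Spr, which makes the final reduction, fell by 1.66 ± 0.180 (log2, SE), Pts by 0.71 ± 0.131 and Pcbd2 by 0.62 ± 0.149 (limma adjusted p = 7.91e-05 to 0.00678). Pcbd2 was not called without control replicate 2 (−0.40, limma adjusted p = 0.0822). Gch1, which sets the rate of the pathway, rose by 1.43 ± 0.437 from 5.62 and 16.5 in the controls to 24.3 to 33.0 in IRKO (limma adjusted p = 0.0205). Its call was lost without control replicate 1 (0.73, limma adjusted p = 0.158), and its sign turned with libraries scaled to the microglia genes (−0.09).

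The other amine-synthesis enzymes gave 2 tested genes of 7, and both fell, for a median of −2.64, beside 29.0% lower among all genes tested. Hdc, which makes histamine, fell from 263 and 177 in the controls to 6.93, 12.8, 25.3 and 19.5 in IRKO, by 3.80 ± 0.461 on the log2 scale (limma adjusted p = 0.000149). Odc1, of polyamine synthesis, fell by 1.47 ± 0.140 (limma adjusted p = 3.42e-05). Tph1, the tryptophan hydroxylase of the periphery and pineal gland, did not pass the filter and stood at 1.12 and 0.968 in the controls and 1.97 to 7.77 in IRKO.

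Among 7 tested amine transporters outside the set 3 rose and 1 fell, with a median of 1.20, beside 26.6% higher and 29.0% lower among all genes. Slc47a1, an exporter of organic cations, rose by 2.55 ± 0.394 (log2, SE), from 8.22 ± 2.07 (SD, n = 2) to 55.2 ± 20.6 (SD, n = 4), and stayed positive in both marker scalings. Slc22a3, the low-affinity monoamine carrier OCT3, rose by 1.47 ± 0.400 and Slc17a8, the glutamate transporter of serotonin neurons and some others, by 1.45 ± 0.540, but both turned negative with libraries scaled to the microglia genes (−0.04 and −0.03). Without control replicate 1 they stood at 0.90 and 0.54 and were not called (limma adjusted p = 0.0802 and 0.367), and Slc17a8 also lost its call without each single IRKO library (limma adjusted p = 0.0622 to 0.0996). Slc18b1, a vesicular polyamine transporter, fell by 0.73 ± 0.135 (limma adjusted p = 0.00166).

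**Figure D4:**
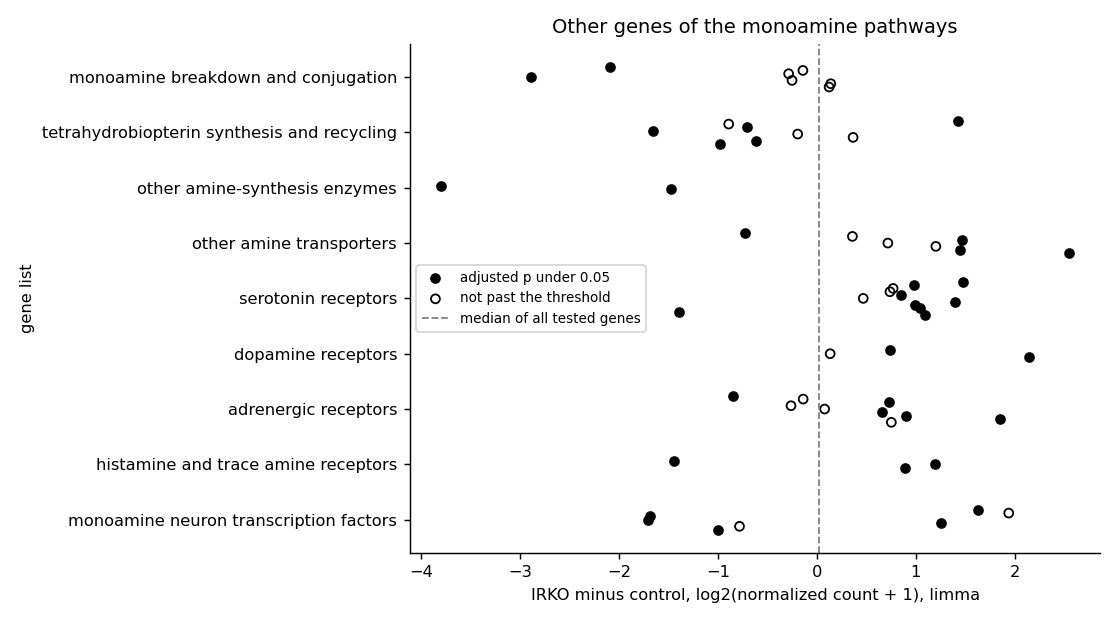
Fitted difference between IRKO and control (x axis, log2) of every tested gene in the 9 lists of other pathway genes (y axis); filled points passed a limma adjusted p under 0.05, open points did not, and the dashed line is the median of all tested genes, 0.02. As deposited, most called receptor genes lie to the right of the line and most called enzyme genes to the left. Scaled to the microglia genes, 14 of the named rises turn negative, where the median of all tested genes is −1.59.

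Receptor genes mostly rose as deposited. Most rises turned negative with libraries scaled to the microglia genes, but that scaling took the median of all tested genes to −1.59. The pan-neuronal scaling took it to −0.81. These sign changes are therefore no trait of the receptor genes. Of 11 tested serotonin receptors 7 rose and 1 fell, beside 26.6% higher and 29.0% lower among all genes tested. Their median of 0.98 was close to the 0.96 of the pan-neuronal list. Htr1a, the inhibitory autoreceptor of serotonin neurons, also found in hippocampus and cortex, rose from 38.8 ± 3.99 (SD, n = 2) to 111 ± 17.6 (SD, n = 4), a log2 difference of 1.48 ± 0.221 (limma adjusted p = 0.000506). Htr4 (1.40 ± 0.308), Htr7 (1.09 ± 0.272) and Htr5a (0.99 ± 0.201) rose too, and Htr7 was not called without control replicate 2 (limma adjusted p = 0.0512). In the microglia scaling Htr1a, Htr4, Htr7 and Htr5a stood at −0.12, −0.18, −0.51 and −0.60. In the pan-neuronal scaling they stood at 0.65, 0.58, 0.27 and 0.17, and none of these was called (limma adjusted p = 0.0673 to 0.628). Htr6, a receptor of striatal and cortical neurons, fell by 1.39 ± 0.169 (limma adjusted p = 0.000149).

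Dopamine receptors rose in 2 of 3 tested cases, beside 26.6% higher among all genes tested. Drd1, of the direct pathway of the striatum, rose by 0.74 ± 0.137 (limma adjusted p = 0.00165), and turned to −0.88 in the microglia scaling and −0.10 in the pan-neuronal scaling. Drd5 rose by 2.14 ± 0.533, from 4.50 and 3.87 to 15.8, 12.8, 43.7 and 25.3 (limma adjusted p = 0.00785). Drd5 stayed positive in both scalings, at 0.72 in the microglia scaling (limma adjusted p = 0.272) and 1.41 in the pan-neuronal scaling (limma adjusted p = 0.0404). Drd2, which dopamine neurons share with the striatum, stood at 332 and 298 in the controls and 235, 242, 518 and 482 in IRKO and was not called. Lmx1b, Tph1, Drd2 and Pitx3 were chosen for mention after their values were seen.

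Of 9 adrenergic receptors 4 rose and 1 fell, beside 26.6% higher and 29.0% lower among all genes tested. Adrb1 (0.90 ± 0.168), Adra1d (0.73 ± 0.260) and Adra2c (0.66 ± 0.163) rose as deposited and stood at −0.71, −0.88 and −0.96 in the microglia scaling. Adra1d and Adra2c were also negative in the pan-neuronal scaling (−0.10 and −0.18), where Adrb1 stood at 0.07 and was not called (limma adjusted p = 0.807). Without control replicate 1, Adra2c and Adra1d were not called (limma adjusted p = 0.0621 and 0.401), and Adra1d was likewise not called when IRKO replicate 2, 3 or 4 was dropped (limma adjusted p = 0.0581 to 0.0864). Adra1a fell by 0.85 ± 0.192, a call lost without control replicate 2 (limma adjusted p = 0.0529).

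Histamine receptors were mixed. Hrh1, of neurons and astrocytes, fell by 1.44 ± 0.208, while Hrh2 rose by 1.19 ± 0.217 and Hrh3, the presynaptic receptor, by 0.89 ± 0.148 (limma adjusted p = 0.000417 to 0.00154). Hrh2 and Hrh3 turned to −0.41 and −0.73 in the microglia scaling. In the pan-neuronal scaling they stood at 0.36 and 0.05 and were not called (limma adjusted p = 0.309 and 0.824).

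Transcription factors of monoamine neurons were tested in 7 of 17 cases, of which 2 rose and 3 fell. Among all genes tested 26.6% were higher and 29.0% lower. Nkx2-2, which also acts in glial precursors, fell by 1.69 ± 0.317 and Insm1 by 1.00 ± 0.230 (limma adjusted p = 0.00177 and 0.00518). Nr4a2, a factor that dopamine neurons need and that is also induced by activity, rose by 1.26 ± 0.313, and Gata2 by 1.62 ± 0.399 (limma adjusted p = 0.00738 for Gata2 and 0.00778 for Nr4a2). Nr4a2 turned to −0.35 in the microglia scaling, and without control replicate 1 neither Nr4a2 (limma adjusted p = 0.0816), Gata2 (0.0750) nor Insm1 (0.0605) was called. Pitx3, a factor restricted to midbrain dopamine neurons within the brain, did not pass the filter and stood at 0 and 0.968 in the controls and 0, 0, 3.89 and 0.974 in IRKO.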

How the data were processed

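Ribosome-bound RNA of 6 libraries was analysed from 1 table. Per the submitters' processing notes, Bowtie2 and the build GRCm38.p6 were used. For the counting tool, annotation, strandedness and normalization tool: not given in the sources used here. Each deposited value is a signal, a gene's reads divided by 1 size factor per library. All values were whole multiples of 1 read within 0.05 reads (100%), which gave the reads back; in IRKO replicate 1 this step (0.991) is too near 1 for a formal test, so edgeR was also run without it. Genes reaching 10 in at least 2 libraries (14698 of 18887) were fitted as log2(value + 1) with limma 3.58.1 (R 4.3.3, variance trend, two-sided, Benjamini-Hochberg over all genes, threshold 0.05), so folds of low genes are understated. Control replicates are only 2, and p-values measure the spread between libraries, which may be technical. Leaving out a control leaves 1, assumed to vary like IRKO.

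The genes and all lists were chosen with earlier results of these data known. Named genes were the 10 genes, Insr, up to 4 list genes with the smallest p in the larger direction and 2 in the other, the first 2 of each marker list used, and the 3 nearest profiles of each tested gene; some of these are not reported here. Intervals are exact, at 95%. The model was also run on simulated counts with 1 fixed spread and few changed genes. These data differ from that setting, so nothing is concluded from it. Alternatives included pseudocounts of 0.5 and 5, no filter, a filter at 50, TMM, quantile and marker scalings, edgeR 4.0.16 and DESeq2 1.42.0 on recovered reads, a replicate block and leaving out each library. Coordinates are those of RefSeq for GRCm38.p6, in which 18542 symbols matched. Noncoding genes overlap Ddc and Slc6a4, and without a stated strand their reads cannot be told apart from these.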

Additional observations from a re-analysis of the deposited data

Results flagged for a closer look

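Among the 4 IRKO libraries, 1 library stood apart from the others by Dixon's criterion for 4 of the 10 genes. Slc18a2 stood at a normalized count of 80.6, Slc6a4 at 20.4 and Fev at 1.94 in IRKO replicate 3, and Dbh at 11.8 in IRKO replicate 2. The Fev value is 2 reads and the Dbh value 12 reads. Slc6a3, highest in the same IRKO replicate 3, did not meet the criterion. Of 28 summed marker and pathway lists 2 met it, both through IRKO replicate 3: midbrain and hindbrain genes were highest there, at 86.5, and homeostatic microglia genes lowest, at 151693. Chance gives about 1 such result in 20 groups of normally distributed values. That rate does not hold for counts as low as those of Fev, Slc6a4 and Dbh. A gene with reads in 1 IRKO library alone, as Fev, meets the criterion whatever its count. The flags are therefore no measure against chance.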

How the results depend on the processing

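The fitted differences of Tph2 (−3.86 to −1.92) and Maob (−5.26 to −3.44) stayed negative in the fits run, whereas per 1000 of the astrocyte sum both had a higher mean in IRKO. Th (−1.66 to 3.70), Ddc (−1.25 to 0.90) and Slc6a3 (−0.36 to 2.17) changed sign between alternatives, and Slc18a2 ranged from 0.60 to 2.95. Scaled to the homeostatic microglia genes, 12431 genes differed (40 higher, 12391 lower) against 8173 (3911 and 4262), and scaled to the pan-neuronal genes 471 were higher and 8773 lower. Quantile normalization gave 4527 higher and 3559 lower. The other pathway genes gave 1 higher and 37 lower in the microglia scaling, and 3 and 25 in the pan-neuronal scaling. In the microglia scaling the signs turned for Adra1d (−0.88), Adra2c (−0.96), Adrb1 (−0.71), Drd1 (−0.88), Gch1 (−0.0886), Hrh2 (−0.41), Hrh3 (−0.73), Htr1a (−0.12), Htr4 (−0.18), Htr5a (−0.60), Htr7 (−0.51), Nr4a2 (−0.35), Slc17a8 (−0.0255) and Slc22a3 (−0.041), and in the pan-neuronal scaling for Adra1d (−0.10), Adra2c (−0.18) and Drd1 (−0.10). Of these shifts, the part that is common to all genes is built into the scaling. Leaving out single libraries gave 25 to 37 called pathway genes, 11 to 21 of them higher and 13 to 16 lower. Replicate numbers 1 and 2 occur in both groups, but same-numbered libraries did not deviate together (correlations of −0.082 and 0.079 across genes); with the number as a replicate block 12 pathway genes were higher, Ddc stood at −0.42 and Slc6a3 at −0.27. Relative to the pan-neuronal sum, the log2 ratio of group means of Th was −1.38, 0.71 per bulb sum (an alternative added after the data had been seen) and −2.34 to 2.86 with single libraries left out (2.86 without control replicate 2), and that of Maob was −4.55, or −5.22 per microglia sum. The causes of these changes were not tested. Depth limits Fev, Slc6a2, Dbh and Slc6a4, whose libraries hold 0 to 21 reads.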

Other observations

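Some genes of other regions were also highest in IRKO replicate 3, namely 4 of 13 listed hypothalamus genes and 3 of 7 thalamus genes. The sum of the hypothalamus genes was nevertheless higher in control replicate 2, at 507, than in IRKO replicate 3, at 486. Pmch, the melanin-concentrating hormone of the lateral hypothalamus, stood at 127 there and at 6.78 to 34.1 in the other 5 libraries, and Hcrt, which encodes the orexins, at 24.3 and at 0.968 to 7.87. The thalamic gene Gbx2 stood at 45.7 there and at 0 to 20.5 elsewhere, and 7 of 8 oligodendrocyte genes were highest in that library, with a sum of 67275 against 27250 to 53243. Cortex and hippocampus genes did not follow, at a sum of 4224 in IRKO replicate 3 and 3804 to 4922 in the other IRKO libraries. These genes were chosen after their values were seen.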
